A study of Mus musculus with 6 samples.

Results

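The messages of the cytosolic ribosomal proteins were followed in 6 stable clones of NIH3T3, an immortalized mouse embryonic fibroblast line from NIH Swiss mice. The genes were chosen by symbol, as Rpl or Rps followed by a number, Rplp0, Rplp1, Rplp2 or Rpsa, leaving out the ribosomal S6 kinases and symbols of pseudogenes. This gave 96 of the 45281 probes of the array and 65 of its 19057 named genes. Of these genes, 33 encode core proteins of the large subunit and 23 core proteins of the small subunit. The other 9 are paralogues, retrogene copies and Rps19bp1, which encodes a partner of Rps19 and not a ribosomal protein. Of the core symbols listed for the large and small subunits, 13 and 8 were not analysed here, among them Rpl5, Rpl10 and Rpl11.

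The 3 FEAT clones (FEAT 3, FEAT 15 and FEAT 20) were NIH3T3 cells stably transfected with the pEF-DEST51 plasmid carrying the human FEAT open reading frame behind the elongation factor 1 alpha promoter. Selection of the FEAT clones was with blasticidin S at 10 µg/ml over 7 days, and clones high in FEAT protein were kept. The dose and length of selection are recorded here for the FEAT clones only. Control clones (labelled ∆ccdB and called control 1, control 2 and control 3 here) carried the same plasmid with its ccdB gene deleted and no FEAT. Each clone is a separate stable line read on 1 Illumina bead array, so a difference between groups includes whatever sets single clones apart. FEAT, also called METTL13, methylates eEF1A, the factor that brings aminoacyl-tRNA to the ribosome.

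The cytosolic ribosome is assembled in the nucleolus from ribosomal RNA and one copy of nearly every ribosomal protein. The small subunit decodes the message and the large subunit forms the peptide bond. In mammals the messages of ribosomal proteins begin with a terminal oligopyrimidine tract, through which mTOR signalling sets their translation, and growing fibroblasts hold large amounts of them. A shortage of some ribosomal proteins causes Diamond-Blackfan anaemia, and unassembled Rpl5 and Rpl11 bind Mdm2 and stabilise p53.

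The mean intensity of the arrays ran from 616 to 735, and 36.9% to 39.8% of their probes lay above a background limit set for each array. Over all 27169 probes tested 50 passed, 32 higher and 18 lower in the FEAT clones. The fibroblast identity was borne out by 9 of 10 fibroblast markers above the limit on all 6 arrays, all but Postn. The summed intensity of these markers was 49444 to 57406 in control clones and 62070 to 69684 in FEAT clones, without overlap, and its part in the results was not tested. Of the markers of other cell types, Cdh1 of 5 epithelial and Lyz2 of 4 haematopoietic markers were above the limit on all arrays, and 0 of 4 endothelial and 0 of 3 neural markers. The summed endothelial markers read 325 to 360 in control and 362 to 385 in FEAT clones. Those of the epithelial markers read 400 to 441 and 401 to 435, those of the haematopoietic markers 462 to 888 and 585 to 688, and those of the neural markers 246 to 294 and 258 to 280.

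No ribosomal protein message passed the test between the groups, and Rpl22 had the largest difference among them. Of the 87 ribosomal protein probes tested, 0 passed an adjusted p of 0.05 (limma, Benjamini-Hochberg over all probes), where 0.184% of all probes passed (0.118% higher and 0.0663% lower). An unadjusted p under 0.05 was reached by 3 of them (3.45%, against 9.08% of all probes), each higher in the FEAT clones, where 4.51% of all probes were higher and 4.57% lower at that level. These were the probes of Rpl22 and Rps15a and the dimmer probe of Rplp0. When control 2, control 3, FEAT 3 or FEAT 20 was left out, some members' probes at that level were lower. The 60 genes with a tested probe had a median log2 difference, FEAT minus control, of -0.05 on their brightest probe, where all 13315 genes tested had 0.01. This median was -0.02 without FEAT 15, -0.03 without control 1 and -0.07 with median scaling. The difference was positive for 19 of the 60 and negative for 41. Because whole cultures were read, fewer cells with a message and less of it per cell cannot be told apart. Of the 87 probes, 77 differed by less than 0.2 on the log2 scale, which is 88.5%, against 70.4% of all probes. These shares were not matched for brightness. Many ribosomal protein probes were bright, and the spread between clones was smaller for bright probes. Over all probes its median SD was 0.15 at intensities of 3000 to 10000 and 0.08 at 30000 and over.

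A difference that did not pass is not shown to be absent, so the width of each interval matters. The 95% interval of a ribosomal protein probe reached between 0.27 and 0.45 to either side of its estimate, with a median of 0.30. For 72 of the 87 probes the whole interval lay within 0.5 on the log2 scale in both directions. The other 15 could hold a larger difference, and Rpl22 was one of them.

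**Figure D1:**
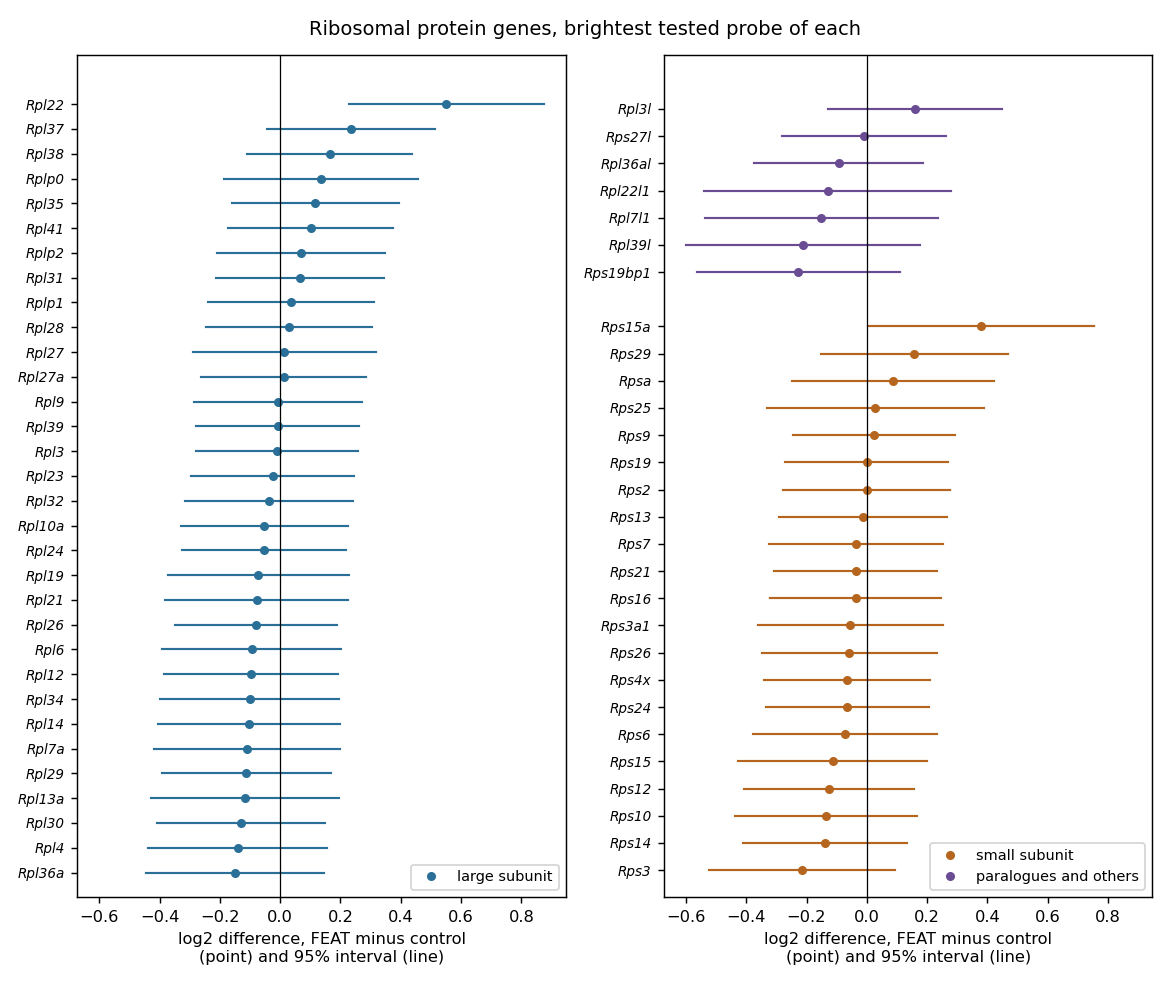
Log2 difference, FEAT minus control, of the 60 ribosomal protein genes tested, each on its brightest probe. Points are estimates over 3 clones against 3 and lines are 95% intervals from the limma fit. Rpl22 lies farthest from 0, at 0.55, and the interval of nearly every other gene crosses 0.

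Rpl22 encodes an RNA-binding protein on the surface of the large subunit that is needed for T cell development and is lost in some tumours. Its only probe read 1818, 1478 and 1414 in control 1, control 2 and control 3 and 2355, 2299 and 2399 in FEAT 3, FEAT 15 and FEAT 20. The lowest FEAT clone was thus above the highest control clone. In normalized log2 values the control clones stood at 10.73, 10.57 and 10.48 and the FEAT clones at 11.38, 11.03 and 11.02, also without overlap and with FEAT 3 highest. The log2 difference was 0.55 (SE 0.15, 95% interval 0.23 to 0.87), a fold of 1.46. It did not pass over all probes (limma, adjusted p = 0.237, unadjusted p = 0.00314), and 358 other probes had a smaller p. Under the 15 other settings and omissions of a clone it ran from 0.43 to 0.62, with adjusted p from 0.0916 to 0.530.

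The paralogue Rpl22l1 can take the place of Rpl22 in the ribosome, and Rpl22 protein is known to hold its expression down. Its probe read 201, 176 and 155 in the control clones and 141, 150 and 224 in FEAT 3, FEAT 15 and FEAT 20. In normalized log2 values FEAT 20 was the highest of the 6 clones, at 7.39, and FEAT 15 the lowest, at 6.69, so the groups overlapped. The log2 difference was -0.13 (95% interval -0.54 to 0.28, limma, adjusted p = 0.879).

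Besides Rpl22, 3 large-subunit genes had all 3 FEAT clones above all 3 control clones in normalized values. Rpl37, a small zinc-binding protein of the large subunit, read 31097, 30885 and 27484 in the control clones and 37551, 34782 and 33460 in the FEAT clones, a log2 difference of 0.24 (95% interval -0.04 to 0.51, limma, adjusted p = 0.621). Rpl38, whose loss in the mouse impairs translation of Hox messages and patterning of the skeleton, read 32258, 32993 and 32952 against 38271, 36944 and 35511, a log2 difference of 0.16 (limma, adjusted p = 0.744). Its other probe went the other way, at -0.09, with FEAT 20 highest at a normalized log2 value of 12.44 and FEAT 15 lowest at 11.95. Rpl41, the shortest ribosomal protein, read 32912, 31288 and 31521 in control clones and 35876, 32324 and 34015 in FEAT clones, where FEAT 15 fell inside the range of the controls before normalization. Its log2 difference was 0.10 (limma, adjusted p = 0.858).

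In 3 genes all FEAT clones lay below all control clones in normalized values. Rps14, a platform protein of the small subunit whose reduced dose underlies the anaemia of the 5q- syndrome, read 33080, 30594 and 31187 in the control clones and 27771, 28930 and 29313 in the FEAT clones. The difference was -0.14 (95% interval -0.41 to 0.13, limma, adjusted p = 0.789). Rps12, a small-subunit protein near the decoding head, read 41231, 42981 and 39573 against 38363, 40244 and 39277, where FEAT 15 was above control 3 before normalization. It differed by -0.12, and its other probe by -0.00077. Rpl26, a large-subunit protein that also binds p53 messages, differed by -0.08 in normalized values, although its deposited intensities overlapped, at 21902 to 24953 in control and 19959 to 23074 in FEAT clones.

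The number of genes without overlap was no larger than over the array. With 1 probe per gene, 4 of 60 were higher in all FEAT clones, where 7.95% of all genes were, and 3 of 60 were lower, where 7.24% were. By probe, 5 of 87 were higher (7.18% of all probes) and 3 lower (6.9%). The direction of this small set turned with the scaling of the arrays. The split was 5 higher and 3 lower with quantile normalization, and 2 higher and 5 lower with median scaling. It was 2 higher and 7 lower with the deposited value table and with cyclic loess. Without overlap in either direction were 9.2% of members' probes with quantile normalization (14.1% of all probes) and 8.05% with median scaling (12.5%). With the deposited value table and with cyclic loess the share was 10.3%, against 12.4% and 14% of all probes. Rpl22, the dimmer Rplp0 probe, Rpl26 and Rps14 kept their separation in 5 of 5 other scalings. Rpl37 and Rpl38 kept it in 2 of 5, Rps12 in 2 of 5 and Rpl41 in 1 of 5. Other members overlapped with quantile normalization but were lower without overlap in some of these scalings. They were Rpl24 and Rpl30 in 3 of 5, Rpl3, Rpl12 and Rps16 in 2 of 5 and Rpl23 in 1 of 5.

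**Figure D2:**
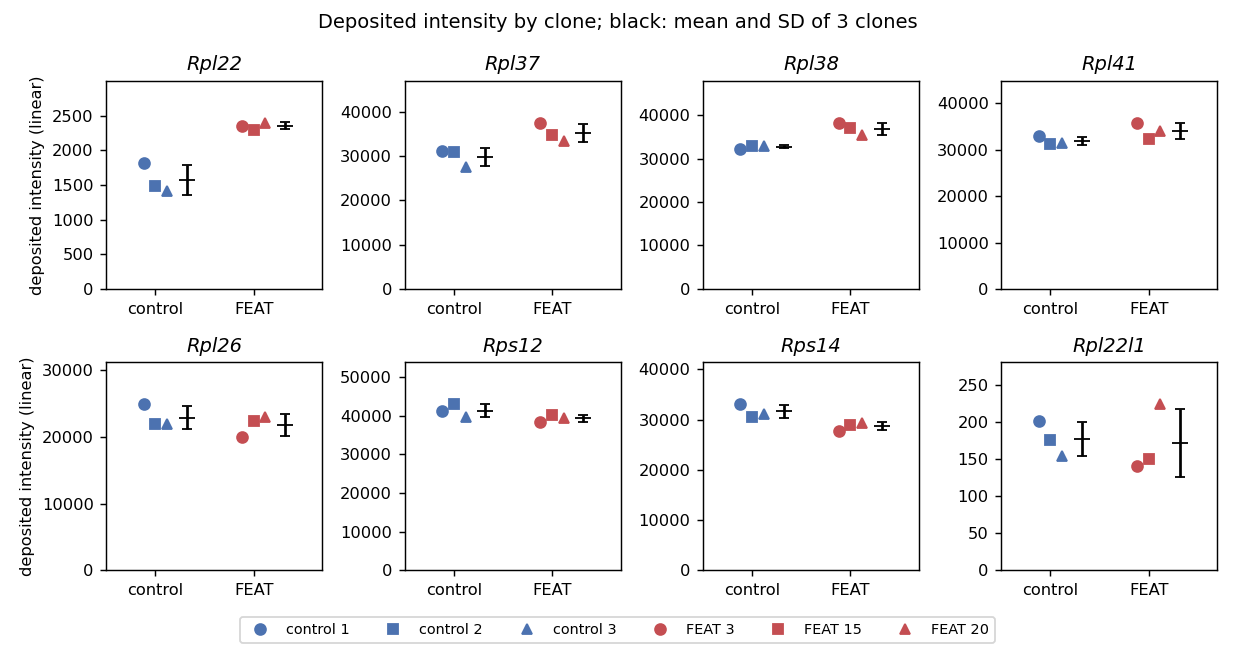
Deposited intensity, on a linear axis from 0, of the 7 genes whose groups did not overlap in normalized values and of Rpl22l1, with 1 point per clone and the mean and SD of 3 clones in black. Rpl22 has FEAT clones at 2299 to 2399 and control clones at 1414 to 1818, whereas the shifts of the other genes are small against their level.

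The starts of these genes are shown to set Rpl22 beside the members around it. Promoters were matched by symbol in RefSeq (GRCm38.p6) for 54 of the 65 genes, with 64 annotated starts. Each window holds 40 bases before and 20 bases from an annotated start. Rpl22 has windows at chr4:152324396-152324455 and chr4:152325686-152325745, Rpl22l1 at chr3:28805468-28805527, Rpl37 at chr15:5116573-5116632, Rpl38 at chr11:114668540-114668599 and Rpl26 at chr11:68901526-68901585, all on the plus strand. Those on the minus strand are Rpl41 at chr10:128549149-128549208 and Rps12 at chr10:23787190-23787249. Capitals mark a match, on the sense strand near the start, to CTTTC or to CTTTTC or to the longer TCTTTCC, or a match on either strand to CCGGAAGT or to TATAAA.
Rpl22 start 1: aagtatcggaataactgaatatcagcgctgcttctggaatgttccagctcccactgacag
Rpl22 start 2: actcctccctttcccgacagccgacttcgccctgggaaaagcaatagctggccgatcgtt
Rpl22l1: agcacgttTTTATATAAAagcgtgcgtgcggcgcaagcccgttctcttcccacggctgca
Rpl37: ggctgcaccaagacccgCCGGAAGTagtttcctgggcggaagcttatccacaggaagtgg
Rpl38: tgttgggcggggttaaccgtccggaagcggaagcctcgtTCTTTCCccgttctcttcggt
Rpl41: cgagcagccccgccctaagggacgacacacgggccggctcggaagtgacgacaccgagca
Rpl26: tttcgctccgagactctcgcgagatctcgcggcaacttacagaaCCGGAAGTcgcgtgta
Rps12: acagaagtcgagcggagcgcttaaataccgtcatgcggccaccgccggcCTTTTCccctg

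Each of 3 short pyrimidine sequences was more frequent near the starts of members than among all promoters of the table. Other pyrimidine tracts near a start, such as that in the window of Rpl22l1, were not counted. Within 20 bases of the start on the sense strand, CTTTC was present in 14 of 64 members' promoters (21.9%, against 5.49% of all 32851), CTTTTC in 5 (7.81%, against 1.43%) and TCTTTCC, which contains CTTTC, in 3 (4.69%, against 0.481%). The next sequences were sought on both strands of the whole promoter, from 250 bases before to 50 bases after the start. The ETS-type sequence CCGGAAGT was present in 10 (15.6%, against 3.89%). The E-box CACGTG was in 8 (12.5%, against 7.15%), CAAGATGG, part of the YY1 motif, in 2 (3.12%, against 2.12%) and TATAAA in 6 (9.38%, against 13.6%). The 15 tested genes with one of the pyrimidine sequences near a start had a median log2 difference of -0.10, from -0.21 to 0.38, and the 37 without had -0.04, from -0.23 to 0.55. Rpl22 was among those without, as the CTTTC in the window of its start 2 lies more than 20 bases before the start.

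Large-subunit genes had a median log2 difference of -0.03 over 32 tested genes (-0.01 without FEAT 15, -0.02 without control 1, -0.07 with median scaling), 12 positive and 20 negative, from -0.15 for Rpl36a to 0.55 for Rpl22. The stalk proteins, which recruit the elongation factors to the ribosome, were among those above 0. Rplp0, the base of the stalk and a common reference gene, read 1709, 1619 and 1451 in the control clones and 1499, 1678 and 2356 in FEAT 3, FEAT 15 and FEAT 20 on its brighter probe. FEAT 20 alone stood above the controls, and the difference was 0.14 (limma, adjusted p = 0.833). The dimmer Rplp0 probe differed by 0.33 (limma, adjusted p = 0.544), but it was above the background limit on 0 control and 2 FEAT arrays. Rplp1 and Rplp2, the acidic proteins of the stalk, differed by 0.04 and 0.07, and Rpl12, at its foot, by -0.10.

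Rpl39, Rpl13a and Rpl23 had differences below 0 on every tested probe. Rpl39, which lines the exit tunnel, differed by -0.01. Rpl13a, which can leave the ribosome to silence inflammatory messages, read 9328, 6340 and 7085 in the control clones and 5956, 7089 and 8274 in the FEAT clones, and the groups overlapped, although FEAT 3 was below every control clone before normalization. The difference was -0.12 (limma, adjusted p = 0.855). Rpl23, another binder of Mdm2, had the widest gap between its probes. The brightest differed by -0.03, a second by -0.04, and the third by -0.28 (limma, adjusted p = 0.668), with control 1 highest at a normalized log2 value of 12.24 and FEAT 15 lowest at 11.54.

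Small-subunit genes had a median of -0.04 over 21 tested genes (-0.01 without control 1, -0.07 without FEAT 20), 6 positive and 15 negative, from -0.21 for Rps3 to 0.38 for Rps15a. Rps15a, a protein of the body of the small subunit, read 248, 256 and 312 in the control clones and 330, 316 and 407 in the FEAT clones on its only probe. All FEAT intensities were above the controls as deposited, but the groups overlapped after normalization, where control 3 lay above FEAT 15. The difference was 0.38 (95% interval 0.0034 to 0.75, limma, adjusted p = 0.545). Rps3, which lines the entry channel of the message and also acts in DNA repair, read 31949, 28090 and 21961 against 21187, 23528 and 26571, and differed by -0.21 (limma, adjusted p = 0.697). Its other probe gave -0.18, and in both the spread of the control clones was wider than the difference.

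Rps6, the ribosomal protein phosphorylated by S6 kinase, read 36824, 31553 and 30823 in the control clones and 30948, 27780 and 34959 in the FEAT clones, a difference of -0.07 (95% interval -0.38 to 0.23). Rps19, the gene most often mutated in Diamond-Blackfan anaemia, read 39413, 39938 and 38099 against 42186, 39698 and 39319. After normalization the groups had equal means, with a 95% interval of -0.27 to 0.27. Its dim second probe differed by 0.12. Over the 10 tested genes of the anaemia list the median was -0.02, 5 positive and 5 negative, and 0 passed. The widest were Rps29 at 0.16, where FEAT 3 and FEAT 15 read 39309 and 40439 and FEAT 20 31861, within the control range, and Rps10 at -0.13.

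The paralogues and other symbols gave 7 tested genes with a median of -0.13, of which Rpl3l alone was positive. Rpl3l, a form of Rpl3 found in striated muscle, differed by 0.16 and was above the background limit on 1 of 3 control arrays and on all FEAT arrays. Rpl39l, a form of Rpl39 known from testis and cancer cells, differed by -0.21, with control 1 apart at 397 and the other 5 clones at 256 to 298. Rpl7l1, an assembly factor related to Rpl7, differed by -0.15 and -0.25 on its probes. Rps19bp1, which also binds the deacetylase Sirt1, differed by -0.23 (limma, adjusted p = 0.706). Rpl36al differed by -0.09 and Rps27l, a p53 target, by -0.01. Rps27l and Rpl36al are close copies of other members, and ribosomal protein genes have many processed copies in the genome, so which messages a probe reads is uncertain. The Rps23rg1 and Rps4l probes were below the background limit on all arrays and were not tested.

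Several genes had only probes that gave no usable level. Of the 96 probes, 79 were above the background limit on all 6 arrays, 12 on 0 and 5 on some. Rpl14, Rpl17, Rps20 and Rps23 had 1 probe each, and none of these was above the limit on any array. The Rpl14 probe was still tested, at -0.10, and counts among the 60 genes. The dimmer probes of Rpl4 and Rplp2, also above the limit on no array, count among the 87 probes tested. Rpsa, the laminin receptor precursor, read 101 to 119 in control and 106 to 125 in FEAT clones on its brighter probe. Where a gene had several tested probes they could part in sign. The probes of Rps24 ran from -0.07 on the brightest to 0.18, those of Rpl29 from -0.11 to 0.12 and those of Rps13 from -0.01 to 0.22. In each of these genes the brightest probe gave the lowest value, whereas in Rpl23, Rpl28, Rpl37, Rpl38 and Rplp2 it gave the highest.

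Many ribosomal protein probes were bright, and those of 30000 and over did not follow the overall brightness of their array. On 46 of the 96 the intensity was over 10000 on all 6 arrays. The highest value of any probe on any array was 49526, and that of a ribosomal protein probe was 47056. FEAT 20 was the brightest array and FEAT 3 the dimmest. Probes of mean intensity 3000 to 10000 had a median log2 difference of 0.34 between these arrays in deposited values, those of 20000 to 30000 had 0.24, and the 117 probes of 30000 and over had 0.0023. Among the latter were 28 ribosomal protein probes, at 0.04. The spread between clones shrank likewise, from a median SD of 0.15 at 3000 to 10000 to 0.08 at 30000 and over. Whether the scale is compressed at its top, so that small differences on Rpl37, Rpl38, Rpl41, Rps12 and Rps14 are understated, was not tested.

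**Figure D3:**
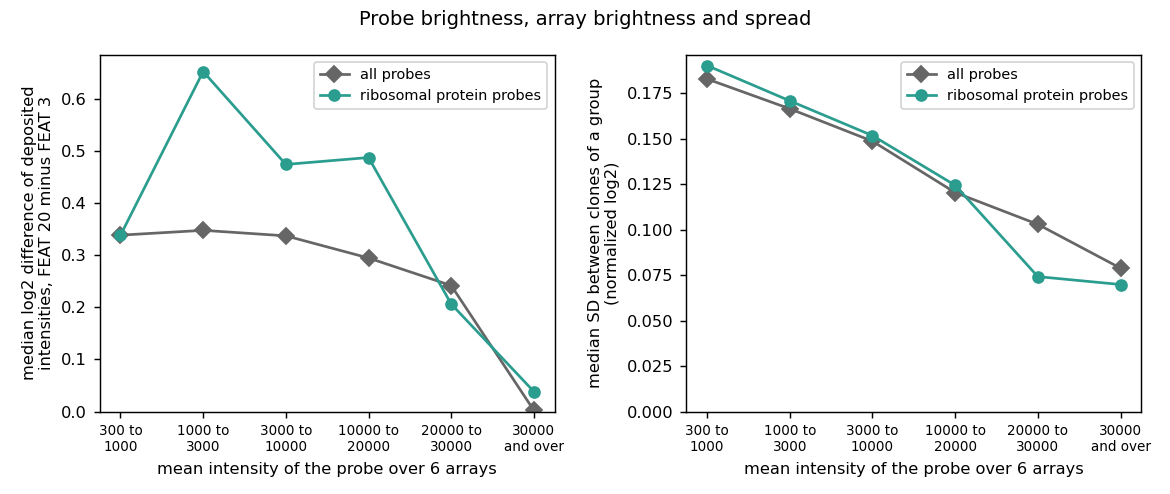
Median log2 difference of deposited intensities between the brightest and the dimmest array (left) and median SD between clones of a group after normalization (right), by mean intensity of the probe over 6 arrays, for all probes and for ribosomal protein probes. Both fall toward the brightest probes, and on the left all probes of 30000 and over stand at 0.0023.

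At intermediate brightness most ribosomal protein probes were lower in the FEAT clones, by amounts that did not pass. Of the 19 probes of intensity 3000 to 20000, 17 were lower in the FEAT clones, with a median log2 difference of -0.11, from -0.28 to 0.09, and 0 with an unadjusted p under 0.05. Single clones stood apart within this range. FEAT 15 was the lowest clone in 13 of the 19, with a median of -0.21 against each probe's mean, control 1 stood at 0.13 and FEAT 20 at 0.07. Control 2, control 3 and FEAT 3 stood at 0.01, -0.0059 and -0.06. The 1841 other probes of this range had medians between -0.0032 and 0.01 in every clone. Without FEAT 15 the median difference was -0.04, with 15 of 19 lower, and without control 1 it was -0.06, with 14 lower. Without FEAT 20 it was -0.17, with 19 of 19 lower.

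The genes behind these 19 probes came from both subunits and included Rpl4, Rpl7a, Rpl13a, Rpl19, Rpl24, Rpl30, Rpl34, Rpl36a, Rps3a1, Rps15 and Rps25, and the paralogue Rpl7l1. Rps25, which is needed for initiation from some viral messages, was 1 of the 2 probes higher in the FEAT clones, at 0.03. Its normalized log2 values were 12.68, 12.68 and 12.60 in the control clones and 12.61, 12.41 and 13.03 in FEAT 3, FEAT 15 and FEAT 20, so FEAT 15 was lowest here too and FEAT 20 highest. At 300 to 3000 the median of the 12 probes was lowest in FEAT 15, at -0.13, and highest in FEAT 20, at 0.14, though FEAT 15 was the lowest clone in 5 of them and FEAT 20 the highest in 4. Of these 12, 8 were higher in the FEAT clones, with a median of 0.10. At 20000 to 30000, 12 of 13 were lower, with a median of -0.04 and FEAT 20 lowest among the clones' medians, at -0.05. The 95 other probes of that range had medians of 0.00045, 0.027 and 0.00021 in control 1, control 2 and control 3. Their medians were -0.013, -0.0033 and -0.011 in FEAT 3, FEAT 15 and FEAT 20, so they too were lower in the FEAT clones. At 30000 and over 15 of 28 ribosomal protein probes were lower, with a median of -0.00067. At under 300 the 15 tested probes had a median of 0.06.

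**Figure D4:**
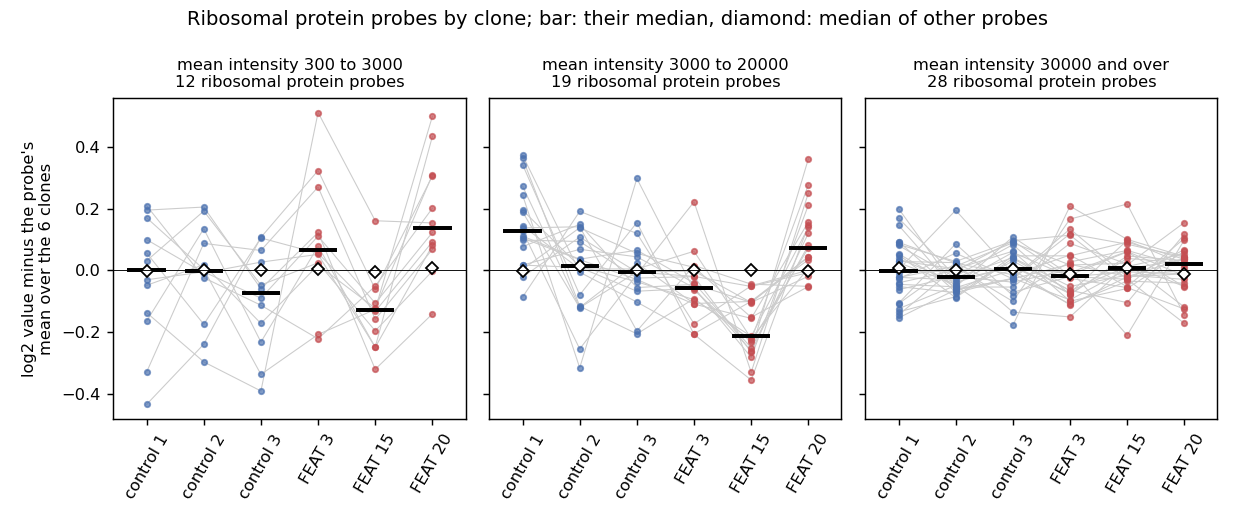
Normalized log2 value of each ribosomal protein probe minus its mean over the 6 clones, in 3 ranges of probe brightness (points and thin lines), with their median (bar) and the median of other probes of that range (diamond). In the middle range FEAT 15 stands at -0.21 and control 1 at 0.13, while the other probes stay near 0 and the brightest range is nearly flat.

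The remaining genes of ribosome production gave 0 calls in every list, where 0.225% of all genes passed (0.135% higher and 0.0901% lower). At an unadjusted p under 0.05, 5.2% of all genes were higher and 4.94% lower. Other messages with a terminal oligopyrimidine tract had a median of 0.0054 over 15 tested genes, 8 positive and 7 negative, with 1 unadjusted p under 0.05 (10.1% of all genes). That was Tpt1, a growth-related calcium-binding protein, at -0.37 (limma, adjusted p = 0.476) on a dim probe. The initiation factor gene Eif4b differed by -0.29, with 0.16 on its other probe, and Naca, a chaperone of nascent chains, by -0.16, with -0.03 and -0.06 on its others. Eef1a1, which encodes the substrate of FEAT, differed by 0.14 and 0.02 on its bright probes and by -0.55 on a dim one (limma, adjusted p = 0.387).

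Ribosome biogenesis factors, which process ribosomal RNA and assemble the subunits, had a median of 0.05 over 39 tested genes, 24 positive and 15 negative, with 0 at an unadjusted p under 0.05. The snoRNP proteins Nop58 and Nop56 differed by -0.24 and 0.24, and the assembly factor Wdr74 by 0.23. The RNA polymerase I list had a median of 0.11 over 14 genes, 10 of them positive and 1 at an unadjusted p under 0.05. That was Cd3eap, a subunit of the enzyme, which read 1579 ± 232 in control and 2081 ± 198 in FEAT clones (SD, n = 3 each), a difference of 0.36 without overlap (limma, adjusted p = 0.501), and 0.08 on its other probe. The largest subunit, Polr1a, differed by 0.31, and Polr1d by -0.21.

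The ribosome of the mitochondrion has its own proteins, encoded by Mrpl and Mrps genes. Their median was -0.06 over 73 tested genes, 28 positive and 45 negative, with 0 called, 2 at an unadjusted p under 0.05, and 2 higher and 6 lower without overlap (7.95% and 7.24% of all genes). Mrps21 was lower in all FEAT clones, at 2487 ± 378 against 3392 ± 522, a difference of -0.50 (limma, adjusted p = 0.235). Mrpl22, the mitochondrial protein at the exit tunnel, differed by -0.30 (limma, adjusted p = 0.483) and Mrpl33 by -0.25. In single clones their median stood at 0.06, 0.05 and -0.10 in control 1, control 2 and control 3 and at -0.05, -0.08 and -0.0028 in FEAT 3, FEAT 15 and FEAT 20, against the control mean. The same values for the cytosolic members were 0.02, -0.02 and -0.02, and -0.04, -0.07 and 0.0056.

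**Figure D5:**
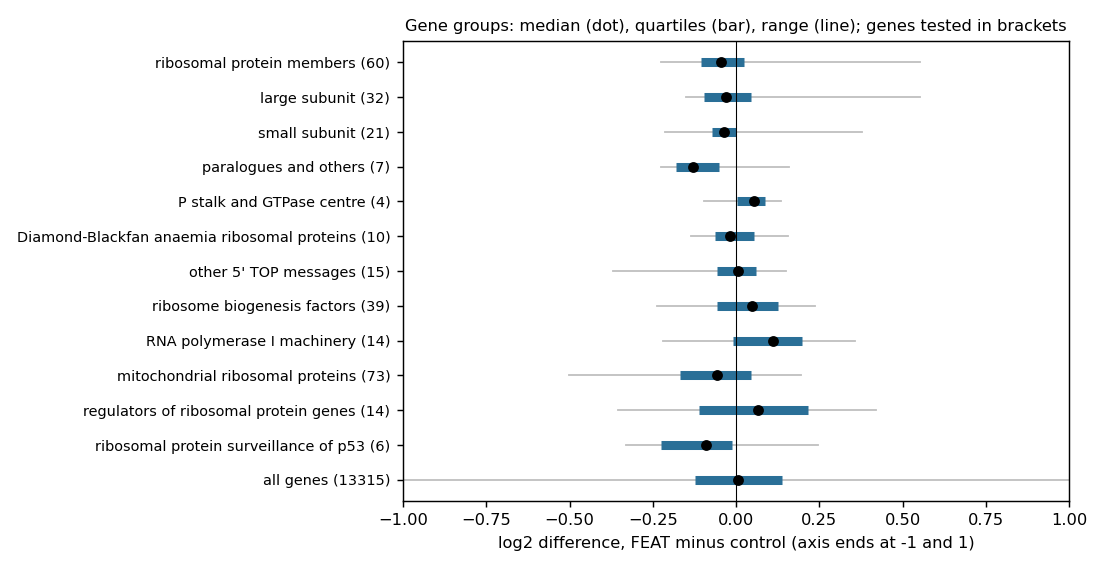
Median (dot), quartiles (bar) and range (line) of the log2 difference, FEAT minus control, over the tested genes of each list and over all genes tested, with the number of genes in brackets. Ribosomal proteins have a median of -0.05 and narrower quartiles than all genes, whose range runs past the axis. The lists are not matched for probe brightness.

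As a share of all deposited signal, the 96 probes held 4.85%, 4.90% and 4.87% in control 1, control 2 and control 3 and 5.10%, 4.61% and 4.61% in FEAT 3, FEAT 15 and FEAT 20. The FEAT clones thus lay on both sides of the controls. After normalization the share was 5.14% ± 0.06 in control and 5.08% ± 0.04 in FEAT clones (SD, n = 3 each), and the groups overlapped.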

How the data were processed

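Per the labels' protocols, RNA from RNeasy columns was amplified (Illumina TotalPrep) and hybridized with a Cy3 label, 1 array per clone. The deposited values are linear probe intensities; the submitters' processing notes name BeadStudio as the authors' tool, and the sources used here give neither its version nor a background step. The lowest intensities were 50.1 to 53.1, so background was still in them, and no detection p was used here. The series' deposited value table holds the same intensities multiplied by 1 factor per array (0.925 to 1.10), on a linear scale without centring of genes (medians 81.6 to 92.6); it served as an alternative.

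With R 4.3.3 and limma 3.58.1, normexp was fitted to the signals (offset 16), followed by quantile normalization and log2. The 60% of probes with the highest mean were tested two-sided with lmFit and eBayes, 3 FEAT against 3 control clones, at an adjusted p (Benjamini-Hochberg over 27169 probes) under 0.05. Every p-value is from this fit. An exact permutation test of 3 against 3 cannot go below 0.1. Log2 differences and intervals come from normalized values, and intensities in the text are as deposited. A gene's brightest tested probe stood for it. The background limit lies 3 SDs above the mode of an array's log2 intensities, with the SD taken from values under the mode. Probe genes came from the GEO platform annotation (34885 probes with 1 gene, 18 with several and left unnamed, 10378 unnamed here). Member symbols were looked up unchanged in the RefSeq table, where 54 had a promoter and 11 did not.

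Members, lists and tests were chosen with earlier results of these data known. Named genes are the members without overlap between groups (up to 6 each way), the paralogues, a few members of known function, the 5 genes whose probes differ most and up to 3 genes per list with the smallest p; Rps15a, Rps3, Rps25 and other genes at the end of a range were named after their values were seen, as were the ranges of brightness. The steps were tested on simulated data. Clones are separate lines, and the sources used here do not say whether they were grown or processed together. Tried alternatives were 5 other scalings, other filters, variance models, array weights, the mean over probes, and leaving out each clone.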

Additional observations from a re-analysis of the deposited data

How the results depend on the processing

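No paired analysis was possible because the clone numbers of the groups (1, 2, 3 and 3, 15, 20) only name clones and share 1 number. Ribosomal protein probes past the threshold numbered 0 in each of the 15 scaling, filter, variance and omission settings. Over all probes the count was 50, between 39 and 68 in the settings with all clones, and between 0 and 158 when a clone was left out (0 without control 1, 158 without control 2, 10 without control 3, 18 without FEAT 3). Ribosomal protein probes with an unadjusted p under 0.05 numbered 1 with array weights and 1 to 3 with a clone left out, against 3. With a clone left out these were 1.15% to 3.45% of members, where 7.12% to 10.4% of all probes reached that level. Higher in the FEAT clones were 1 of 3 without control 2 and 2 of 3 without control 3 and without FEAT 3. It was 1 of 2 without FEAT 20 and all of them without control 1 and without FEAT 15. Groups did not overlap in 12 to 19 ribosomal protein probes with a clone left out, against 8. The 12 to 19 were 13.8% to 21.8% of members, where 23.0% to 26.9% of all probes did not overlap. The median over all members' genes, -0.045, ran from -0.018 to -0.062 over the omissions and was -0.071 with median scaling. That over large-subunit genes was -0.067 with median scaling and -0.013 without FEAT 15, against -0.031, and that over small-subunit genes was -0.068 without FEAT 20 and -0.015 to -0.068 over the omissions, against -0.037. The cause was not tested. Of 51 named probes, 40 kept their sign in every setting and 11 changed it in some, none of them at an unadjusted p under 0.05; 0 of the 25 that differed by over 0.2 changed it. The number of arrays, 3 per group, limits the precision, and 12 of the 96 probes were below the background limit on all arrays.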

Other observations

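Genes that act on ribosome production, and those that report on free ribosomal proteins, also gave 0 calls. The regulators list had a median log2 difference of 0.07 over 14 tested genes, 8 positive and 6 negative. At an unadjusted p under 0.05, 1 was higher, Rps6kb2, and 1 lower, Maf1, where 5.2% of all genes were higher and 4.94% lower. Maf1, a repressor of RNA polymerase III, read 5641 ± 763 in FEAT and 7094 ± 1081 in control clones (SD, n = 3 each). In normalized values all 3 FEAT clones were below the control clones, a difference of -0.35 (limma, adjusted p = 0.458). Before normalization FEAT 15, at 6276, was above control 3, at 5930. Rps6kb2, an S6 kinase gene, differed by 0.42 (limma, adjusted p = 0.531), on a probe above the background limit on 2 of 3 control arrays. Myc, which drives ribosome production, differed by 0.23 (limma, adjusted p = 0.673).

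In the list around p53 surveillance, 5 of 6 tested genes were negative, with a median of -0.09 and 0 at an unadjusted p under 0.05. Among the negative ones were Rpl23 at -0.03 and Rps27l at -0.01, which also count among the ribosomal protein genes. The ubiquitin ligase gene Mdm2 differed by -0.25 on its brightest probe and by -0.36 and -0.22 on its others, the last below the background limit on all arrays, the stress sensor gene Sesn2 by -0.33, and the p53 target Ccng1 by 0.25, none of which passed. The control clones differed among themselves in this list, with medians of -0.26 in control 1 and 0.29 in control 2 against the control mean.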
